A study of Mus musculus with 9 samples.

Results

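The comparison described here is that of neurospheres exposed early to 10 nM retinoic acid (RA) with neurospheres given the vehicle alone, both collected on day of differentiation (DoD) 36. The pair was chosen by the sample labels, and it takes up 2 of the 9 arrays of the series. The RA array is called R8 and the vehicle array C. Total RNA was measured on Illumina MouseWG-6 arrays, on which each gene is read by 1 or more probes. Both cultures began as G6B-2 mouse embryonic stem cells (mESCs), the spelling of the labels, which the study gives as B6G-2. R8 cells received 10 nM RA for 4 days, from day 2 to day 6, while they formed embryoid bodies (EBs), and C cells received 0.1% ethanol over the same days, although the series text names another solvent. Both were plated on ornithine and laminin on DoD 8, grown in neural medium from DoD 22, and collected on DoD 36, which the labels call day 29, so that RA had been absent for 30 days by the study's count. By the study's account each array carries a single mixture of the RNA of 6 biological replicates. There is therefore 1 array a side and no replicate error, and no difference below carries a test. A further DoD 36 array, R7, held cells given 100 nM RA over the same 4 days.

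RA is a derivative of vitamin A that enters the nucleus and binds RA receptors, which sit on DNA together with retinoid X receptors and switch target genes, among them *Hox* genes and the RA-degrading *Cyp26* enzymes. In the embryo it patterns the hindbrain and spinal cord, and in stem cell cultures it is widely used to direct EBs toward neural cells, while it also acts on heart, endoderm and skin. EBs form derivatives of all germ layers, so a culture grown from them can hold muscle, epithelium and endoderm beside neurons and glia.

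Values are rescaled signals, for which every array was brought to a common median of the 16146 probes that all 9 detected, and a difference is the log2 of R8 over C. A probe counted as detected at a signal of 29.1 before rescaling, which is 26.3 on the R8 array and 32.6 on the C array afterwards. Where only 1 of the arrays detected a probe, only a limit can be given, written "at least" or "at most". Background probes were brighter on R8, with a 0.99 quantile of 56.0 against 32.2 signal units on C, so dim signals on R8 are less certain. "Rose" and "fell" are used for genes at least 2-fold apart. As a measure of how far single arrays of similar cultures lie apart, the array of 1 nM RA on DoD 8 was set against vehicle on DoD 8. Those cultures were much younger than R8 and C, and the spread between similar cultures on DoD 36 was not measured. Over probes detected on both arrays of a pair, 18.7% were at least 2-fold apart between R8 and C on DoD 36, against 2.69% in that DoD 8 pair, which holds any effect of 1 nM RA too. In the DoD 8 pair the share was 11.0% for signals of 52.7 to 74.2 and 0.0972% above 3907.6, so dim differences are much less secure than bright ones.

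The label of late neural culture was checked against defining genes. *Sox1* and *Fabp7*, of neural progenitors, *Nefl*, of the neuronal cytoskeleton, and *S100b*, of astrocytes, were below detection on both arrays. *Tubb3*, the neuronal tubulin, read 105.6 on R8 and 154.8 on C, and *Map2*, a dendritic microtubule protein, read 53.5 on R8 and 28.2, below detection, on C. Other neural genes were well above detection on both, with *Map1b*, a microtubule protein of growing axons, at 5958.0 on R8 and 2677.2 on C, *Stmn2*, of growth cones, at 1641.1 on R8 and 936.3 on C, and *Mapt*, tau, at 1601.3 on R8 and 1473.2 on C. The summed signal of the neuron list was 20508.0 on R8 and 11705.3 on C. The neural label was thus met by some of its markers and not by others. The endoderm genes *Gata6* (16516.1 on R8 and 19822.1 on C), *Ttr* (21724.5 on R8 and 20126.0 on C) and *Sox17* (5627.2 on R8 and 6628.6 on C) were also far above detection on both. In mixed RNA of this kind, fewer cells of a type and less RNA per cell cannot be told apart.

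Of 12993 genes measured on at least 1 of the 2 arrays, 1454 rose (11.2%) and 1114 fell (8.57%) in R8, and the median difference of all genes was -0.15. Over all probes the shares were 12.0% and 8.08%. Among the 9793 genes with a signal of 100 or more on the brighter array, 1239 rose and 951 fell, and differences ran from 7.22 to -3.53. The increases were larger than the decreases. The balance between the directions depended on the scaling. Genes that rose were 56.6% of those at least 2-fold apart as reported, 35.3% after scaling to the 0.75 quantile, 38.6% with the median of all probes, 80.7% with no rescaling and 53.6% with quantile normalization. These scalings shifted the median of all genes by -0.25, -0.21, 0.29 and 0.09 in that order, so each list below is read against the median of all genes.

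**Figure D1:**
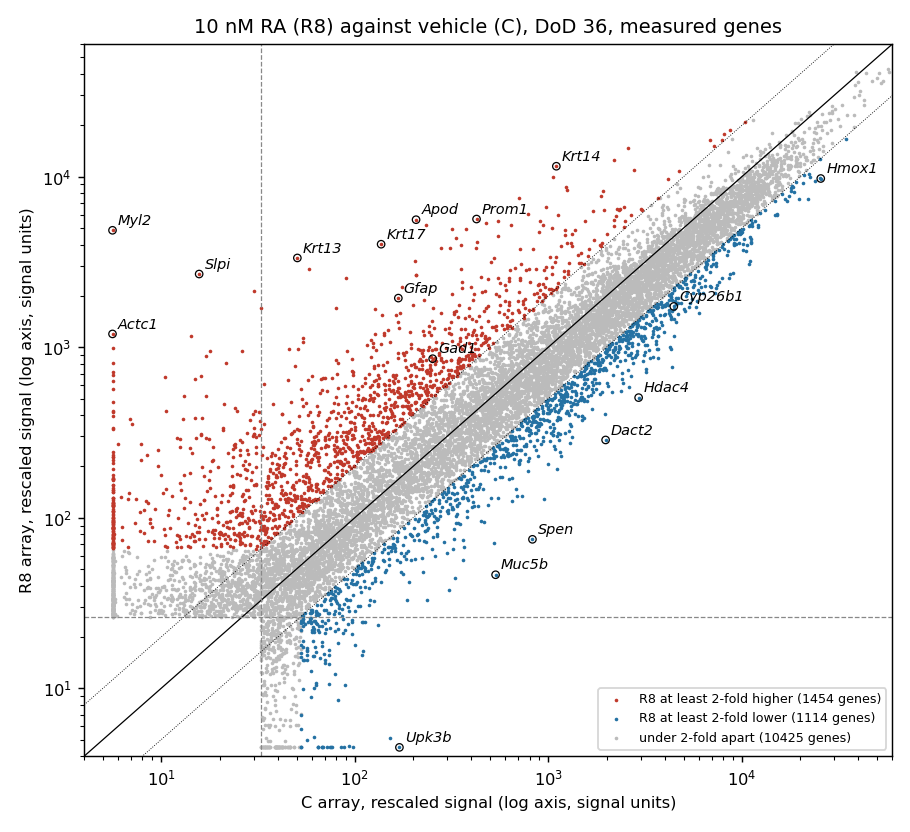
Rescaled signal of each measured gene on the R8 array (10 nM RA, vertical log axis) and the C array (vehicle, horizontal log axis) on DoD 36, with dotted lines at 2-fold and dashed lines at the detection level of each array. *Myl2* (4847.8 on R8 and 5.6 on C) lies farthest above the diagonal, and *Muc5b* (46.3 on R8 and 534.0 on C) and *Spen* (74.7 on R8 and 828.0 on C) lie far below it.

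Genes of the heart muscle sarcomere held the largest single increase. *Myl2*, the ventricular regulatory light chain of myosin, read 4847.8 on R8 and 5.6, the floor, on C, a difference of at least 7.22. It was seen in R8 and not in C. *Actc1*, cardiac alpha-actin, read 1196.4 on R8 and 5.6 on C, at least 5.20 apart, and its second probe read 269.5 on R8 and 68.6 on C, a difference of 1.97. Both probes rose, but only the first was at the floor in C. *Actn2*, the alpha-actinin of the Z-disc, read 421.8 on R8 and 10.6, below detection, on C, at least 3.69 higher. The calcium pump regulator *Pln* read 329.0 on R8 and 20.8, below detection, on C, at least 3.34 higher. On these probes all 4 genes were below detection in C.

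Other sarcomere genes were well above detection in both cultures. *Tnnt2*, cardiac troponin T, read 6439.8 on R8 and 2256.2 on C (1.51), and *Myl4*, the atrial essential light chain, read 4631.0 on R8 and 2001.2 on C (1.21). *Myl3*, the ventricular essential light chain, read 8614.4 on R8 and 11553.2 on C (-0.42), and *Myl7*, the atrial regulatory light chain, read 1993.5 on R8 and 3272.9 on C (-0.72). *Mybpc3*, cardiac myosin-binding protein C, fell to 261.7 on R8, against 1073.1 on C (-2.04). C therefore also held RNA of heart muscle genes, and the pair differed in which of them it held. Of 18 sarcomere genes, all with a probe, 16 were measured, 7 rose and 2 fell, with a median of 0.42. The summed signal of the list was 39797.8 on R8 and 36238.3 on C. Of 22 cardiac regulators and calcium handling genes, 18 were measured, 5 rose and none fell. Their median of 0.04 changed sign with the scaling, from -0.21 with the 0.75 quantile to 0.35 with no rescaling. *Nppa*, the atrial natriuretic peptide, read 102.2 on R8 and 33.1 on C (1.63), and *Cox6a2*, a muscle subunit of cytochrome oxidase, read 610.7 on R8 and 131.1 on C (2.22). *Gata4*, a heart and endoderm transcription factor, read 3811.1 on R8 and 5644.9 on C (-0.57). *Nkx2-5*, the early cardiac homeobox gene, read 46.6 on R8 and 25.7, below detection, on C, with a bound of at least 0.52. This list includes *Pln*, and its median lay below that of the sarcomere list (0.04 against 0.42).

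**Figure D2:**
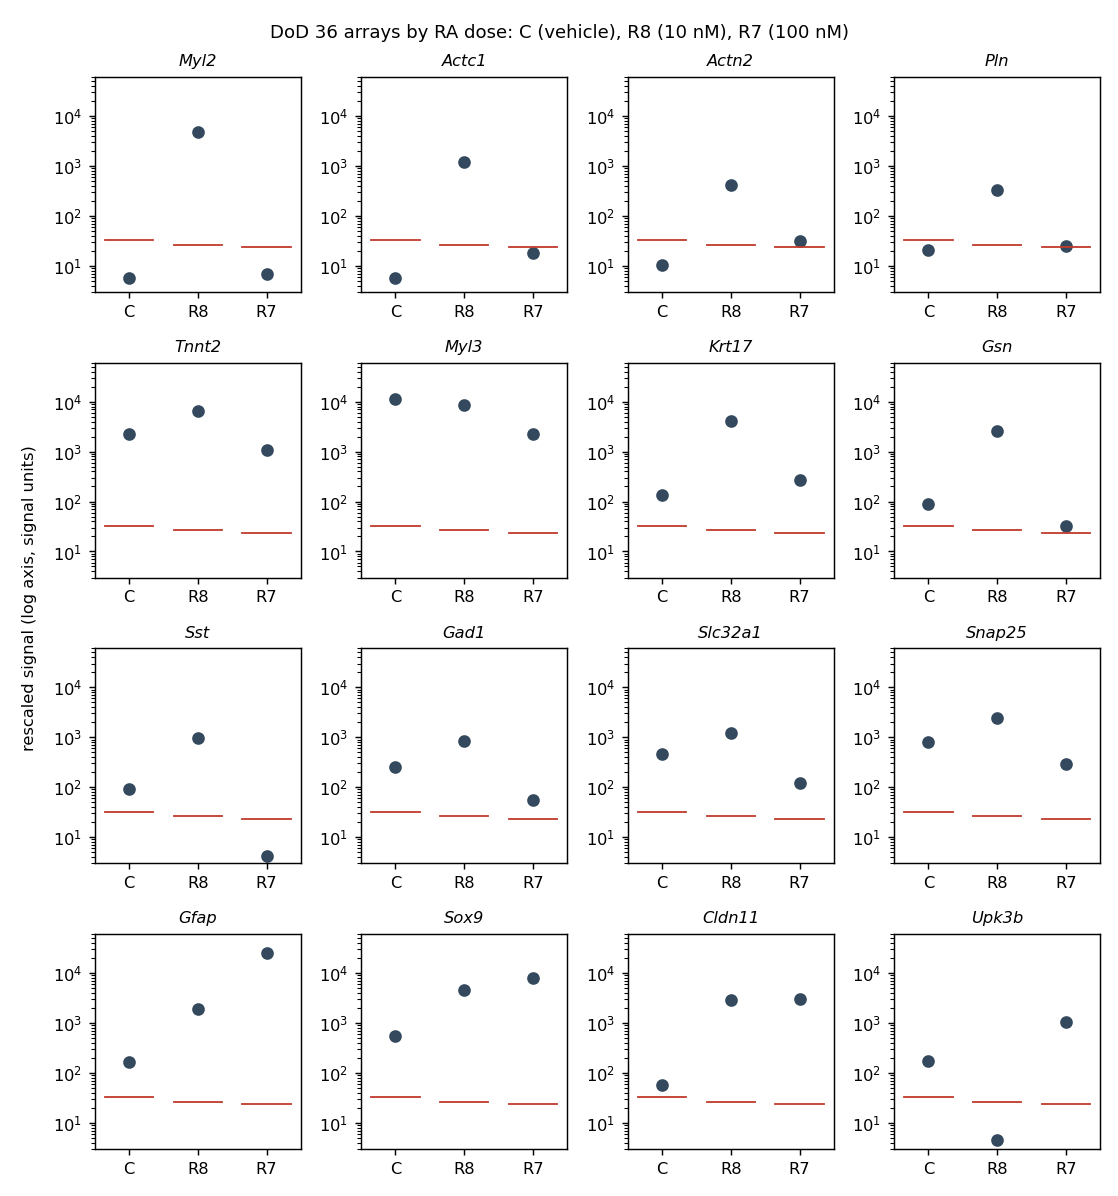
Rescaled signal (log axis) of 16 genes on the DoD 36 arrays of C (vehicle), R8 (10 nM RA) and R7 (100 nM RA), 1 array each, with red lines at the detection level of each array. *Myl2*, *Actc1* and *Sst* are high on R8 only of the 3, *Gfap* climbs from 167.9 on C over 1940.6 on R8 to 25373.1 on R7, and *Upk3b* is at the floor on R8.

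A second large group belonged to stratified epithelium, the tissue of epidermis and oral lining, whose cells fill with keratins and then build a cornified envelope under the membrane from loricrin, small proline-rich (*Sprr*) and late cornified envelope (*Lce*) proteins. *Krt13*, a keratin of inner stratified linings, read 3337.4 on R8 and 50.5 on C, a difference of 6.05. *Krt14*, the keratin of basal cells, read 11513.8 on R8 and 1100.2 on C (3.39), and its partner *Krt5* read 270.8 on R8 and 6.0, below detection, on C (at least 3.06). A second *Krt13* probe was dimmer, at 47.7 on R8 and 5.6 on C (at least 0.55). *Krt10*, of the upper layers of epidermis, was under 2-fold, at 655.1 on R8 and 562.9 on C (0.22), and its partner *Krt1* and *Krt2* were below detection on both arrays. Not every keratin of stratified epithelium was thus higher. *Krt17*, induced in wounded epidermis and present in skin appendages, read 4017.0 on R8 and 136.8 on C (4.88), and *Krt16* read 1540.8 on R8 and 138.0 on C (3.48). *Trp63*, the p63 transcription factor of stratified epithelia, read 100.6 on R8 and 5.6 on C (at least 1.63). The keratins of simple epithelium did not share the change. *Krt8* read 8416.3 on R8 and 16089.6 on C (-0.93), and *Krt18* read 10957.5 on R8 and 21352.8 on C (-0.96), while *Krt7* and *Krt19* lay at -0.29 and -0.74. These families were picked out after their values were seen. Of 44 keratin genes with a probe, 21 were measured, 9 rose and 1 fell.

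The envelope families followed the stratified keratins. Of 16 *Lce* genes with a probe, 10 were measured, 9 rose and none fell, and their summed signal was 5947.6 on R8 and 290.5 on C. *Lce3c* read 1699.8 on R8 and 80.1 on C (4.41), and *Lce1c* read 992.2 on R8 and 5.6 on C (at least 4.93). Of 13 *Sprr* genes, 6 were measured, 5 rose and none fell, with *Sprr3* at 715.7 on R8 and 5.6 on C (at least 4.46) and *Sprr1b* at 634.9 on R8 and 5.6 on C (at least 4.29). In C, 8 of the 10 measured *Lce* genes were below detection, and the probes of both families are read with care, since their members are close copies and 1 RNA may light several probes. Both families lie on chromosome 3, where *Rptn* and *Kprp* also lie. *Rptn*, repetin of the epidermal matrix, read 2138.1 on R8 and 30.1, below detection, on C (at least 6.04), and its second probe read 337.4 on R8 and 10.9 on C (at least 3.37). *Kprp*, a proline-rich keratinocyte protein, read 1168.8 on R8 and 14.2 on C (at least 5.17). *Ly6d*, a surface protein of keratinocytes, read 1695.6 on R8 and 32.6 on C (5.70). Of the S100 proteins encoded on the same chromosome, *S100a14* of epithelia read 401.9 on R8 and 57.3 on C (2.81), whereas *S100a13* fell to 3957.1 on R8, against 10679.2 on C (-1.43). *Krtdap* and *Calm4*, both of keratinocytes, rose by at least 4.87 each.

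**Figure D3:**
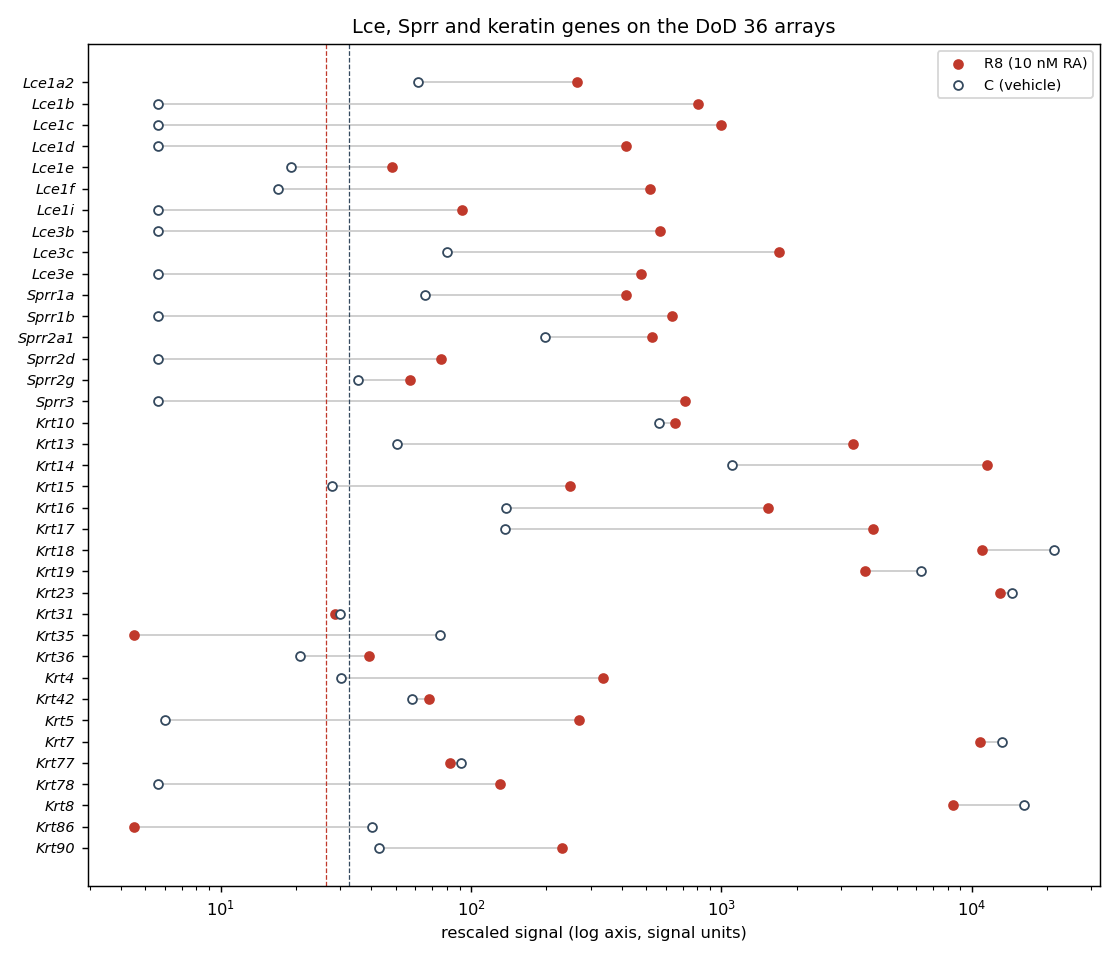
Rescaled signal (log axis) of every measured *Lce*, *Sprr* and keratin gene on the R8 (10 nM RA, filled) and C (vehicle, open) arrays of DoD 36, with dashed lines at the detection level of each. Most *Lce* and *Sprr* genes and *Krt13*, *Krt14*, *Krt16* and *Krt17* lie to the right on R8, and *Krt8*, *Krt18*, *Krt19* and *Krt7* lie slightly to the left.

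The promoters of *Myl2*, *Actc1*, *Krt13*, *Sprr1a* and *Sprr1b* are shown. They are not simply those of the largest increases, since *Sprr1a* (2.66) rose less than *Krt17* (4.88) and *Sprr3* (at least 4.46). Each window runs from 250 bases before the annotated start to 50 bases after it, 5′ to 3′ on the gene's strand, from RefSeq on GRCm38.p6. Capitals mark the TATA box TATAAA. They also mark TGANTCA, a looser spelling than the AP-1 consensus of TGAGTCA or TGACTCA, and the CArG box, bound by serum response factor. Each was searched on both strands. A CArG box can contain TATAAA, and no match printed here overlaps another.
Myl2, chr5:122092474-122092773, plus strand: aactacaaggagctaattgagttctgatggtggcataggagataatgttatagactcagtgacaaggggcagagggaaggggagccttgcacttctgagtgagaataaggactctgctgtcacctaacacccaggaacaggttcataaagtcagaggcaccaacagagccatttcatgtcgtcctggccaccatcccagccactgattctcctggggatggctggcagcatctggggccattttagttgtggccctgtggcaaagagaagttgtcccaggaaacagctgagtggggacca
Actc1, chr2:114052826-114053125, minus strand: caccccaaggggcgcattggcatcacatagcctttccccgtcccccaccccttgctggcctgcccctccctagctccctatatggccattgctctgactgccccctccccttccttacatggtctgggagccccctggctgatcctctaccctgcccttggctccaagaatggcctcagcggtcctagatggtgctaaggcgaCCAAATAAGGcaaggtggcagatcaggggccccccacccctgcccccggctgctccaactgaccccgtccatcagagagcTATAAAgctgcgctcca
Krt13, chr11:100121517-100121816, minus strand: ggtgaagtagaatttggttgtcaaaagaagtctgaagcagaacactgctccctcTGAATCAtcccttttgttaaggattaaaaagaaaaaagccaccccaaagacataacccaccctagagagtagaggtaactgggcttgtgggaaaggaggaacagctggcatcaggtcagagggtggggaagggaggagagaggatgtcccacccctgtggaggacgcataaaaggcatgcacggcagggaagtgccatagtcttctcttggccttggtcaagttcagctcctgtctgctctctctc
Sprr1a, chr3:92485832-92486131, minus strand: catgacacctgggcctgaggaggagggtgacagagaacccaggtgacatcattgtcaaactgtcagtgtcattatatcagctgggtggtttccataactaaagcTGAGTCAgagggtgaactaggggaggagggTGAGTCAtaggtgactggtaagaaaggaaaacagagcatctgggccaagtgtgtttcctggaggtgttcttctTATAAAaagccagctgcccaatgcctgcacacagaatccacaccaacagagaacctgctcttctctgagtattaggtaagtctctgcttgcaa
Sprr1b, chr3:92438730-92439029, minus strand: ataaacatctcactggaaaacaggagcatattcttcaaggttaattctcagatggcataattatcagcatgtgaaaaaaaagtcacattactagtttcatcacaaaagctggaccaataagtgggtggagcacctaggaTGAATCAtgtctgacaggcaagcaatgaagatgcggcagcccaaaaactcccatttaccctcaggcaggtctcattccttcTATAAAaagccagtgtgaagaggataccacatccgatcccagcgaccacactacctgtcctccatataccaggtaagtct
*Myl2* and *Krt13* have 2 starts in the table, and the first is shown. The *Actc1* window held a CArG box that began 47 bases before the start and TATAAA from base 34 of the transcript. *Sprr1b* had TATAAA 30 bases before its start and TGAATCA 111 bases before it. *Sprr1a* had TATAAA 43 bases and TGAGTCA 146 and 116 bases before its start, and *Krt13* had TGAATCA 196 bases before its start. Of these matches to TGANTCA, only those of *Sprr1a* have the AP-1 consensus. The *Myl2* window held none of the 3. Over 27025 genes with a promoter in the table, 14.2% held TATAAA, 7.93% TGANTCA and 1.57% a CArG box. Of the 23 *Lce*, *Sprr* and keratin genes that rose, 18 had a promoter in the table, and 33.3% of these held TATAAA, 22.2% TGANTCA and none a CArG box. *Krt13*, *Sprr1a* and *Sprr1b* all hold TGANTCA, so the epidermal windows shown are not typical of these 18. CANNTG was also searched and is not marked. It was in 72.1% of all genes with a promoter and in 94.4% of the 18. Of the 7 sarcomere genes that rose, 1 held a CArG box. A match says only that the letters are present.

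The GABAergic, synaptic, glutamatergic, neuron, astrocyte and neural progenitor lists had medians above 0 under each scaling tried. Inhibitory (GABAergic) neurons make their transmitter with *Gad1* and *Gad2* and load it into vesicles with *Slc32a1*. *Gad1* read 856.2 on R8 and 252.6 on C (1.76), but its second measured probe was level, at 58.0 on R8 and 57.1 on C (0.02). *Gad2* read 322.8 on R8 and 121.7 on C (1.41), and *Slc32a1* read 1209.4 on R8 and 455.1 on C (1.41). All 3 were thus higher on the chosen probes, and *Gad1* on only 1 of 2. Peptides and calcium-binding proteins of interneurons differed more. *Sst*, somatostatin, read 951.2 on R8 and 90.8 on C (3.39), *Npy*, neuropeptide Y, read 303.4 on R8 and 29.7, below detection, on C (at least 3.22), and *Pvalb*, parvalbumin, read 1129.2 on R8 and 53.9 on C (4.39). The homeobox gene *Dlx2* read 216.6 on R8 and 18.6, below detection, on C (at least 2.73), whereas *Dlx5* fell to 49.4 on R8, against 101.3 on C (-1.04), and its other probe read 61.5 on R8 and 37.4 on C (0.72). *Lhx6*, which specifies interneurons, read 24.1, below detection, on R8 and 59.5 on C (at most -1.18). All 12 genes of the list with a probe were measured, 8 rose and 2 fell, with a median of 1.52, and their summed signal was 5500.2 on R8 and 1363.6 on C.

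Several genes of transmitter release rose with them, while most general neuronal genes lay under 2-fold. *Snap25*, of the release machinery, read 2413.8 on R8 and 804.1 on C (1.59), *Syt1*, its calcium sensor, read 1524.0 on R8 and 387.0 on C (1.98), and *Cplx1*, complexin, read 574.3 on R8 and 168.7 on C (1.77). Of 16 synaptic genes with a probe, 13 were measured, 7 rose and none fell, with a median of 1.08. *Syp*, *Syn1* and *Sv2a* of this list lay under 2-fold on their chosen probes, at 0.32, -0.4 and 0.85. The second *Syn1* probe lay at 1.25, and that of *Snap25* at 0.48. *Gria1*, a glutamate receptor subunit, read 805.1 on R8 and 81.7 on C (3.30), and *Slc17a6*, a vesicular glutamate transporter, read 524.4 on R8 and 249.0 on C (1.07). Of 13 glutamatergic genes with a probe, 9 were measured, 5 rose and none fell (median 1.07). *Tph2*, which starts serotonin synthesis in neurons, read 166.3 on R8 and 5.6 on C (at least 2.35). In contrast, of 18 measured neuron genes, 3 rose (*Rbfox3* 1.73, *Elavl2* 1.41 and *Map1b* 1.15) and none fell, with a median of 0.76. The other *Map1b* probes disagreed, at 0.19, 3.06 and 0.0. *Stmn2*, *Gap43* and *Dcx*, of growing neurites, lay at 0.81, 0.90 and 0.75. Motor and cholinergic genes had a median of -0.45, with *Isl1* at least 1.89 higher and *Prph* lower by 1.78 (30.4 on R8 and 104.5 on C).

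Astrocytes and the radial glia from which they arise share many genes, and the astrocyte list had the highest median of all lists under each scaling. With detection at 100 its median of 1.09 was below those of midbrain and hindbrain (1.67), GABAergic (1.41), glutamatergic (1.14) and neural progenitor (1.13) lists. The oligodendrocyte list passed it with the brightest probe of a gene (2.25 against 2.10) and with the mean of a gene's probes (1.59 against 1.38). *Gfap*, the astrocyte filament, read 1940.6 on R8 and 167.9 on C (3.53), and its second probe read 419.1 on R8 and 14.3, below detection, on C (at least 3.69). Both probes gave close values. *Apoe*, the lipid carrier of astrocytes, read 6636.4 on R8 and 976.0 on C (2.77). The water channel *Aqp4* read 214.7 on R8 and 84.0 on C (1.35) on the chosen probe, and a second probe read 3942.2 on R8 and 339.8 on C (3.54). Its other measured probes lay at -0.33, at least 2.17 and at least 0.17. *Slc1a2*, the glutamate transporter, read 238.6 on R8 and 57.2 on C (2.06), and *Aldh1l1*, a folate enzyme of astrocytes, read 266.6 on R8 and 60.9 on C (2.13). The other *Aldh1l1* probes lay at 0.14 and 1.88. *Gja1*, of gap junctions, and *Clu*, a secreted chaperone, lay at -0.08 and 0.13. Of 14 astrocyte genes with a probe, 13 were measured, 9 rose and none fell, with a median of 2.06, and the summed signal was 45305.6 on R8 and 29238.4 on C. Outside the list, *Mt3*, the brain metallothionein, read 2667.8 on R8 and 206.0 on C (3.69), whereas *Mt1* and *Mt2*, made in most cells, lay at -0.29 and -0.66.

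Among neural progenitor genes, 14 of 17 with a probe were measured, 8 rose and none fell, with a median of 1.15 and a summed signal of 30590.7 on R8 and 12101.1 on C. *Zic1*, a zinc finger factor of the dorsal neural tube, read 1284.2 on R8 and 293.7 on C (2.13), and *Sox2* read 253.1 on R8 and 40.0 on C (2.66). *Notch1* read 921.4 on R8 and 272.4 on C (1.76) and its target *Hey1* read 414.4 on R8 and 58.8 on C (2.82), but *Hes1*, another target, read 1870.0 on R8 and 2629.8 on C (-0.49). The Notch list as a whole had a median of 0.05, which was negative with 3 of the 4 other scalings. *Pax6* lay at 0.35 and *Lhx2* at -0.55, so the list did not move as 1 block.

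Myelin genes gave wide disagreement between probes of a gene. For *Mag*, a myelin adhesion protein, the chosen probe read 33.1 on R8 and 26.1, below detection, on C, a bound of at least 0.02, but the second probe read 1729.5 on R8 and 5.6 on C, at least 5.73 higher. *Mbp*, the basic protein of compact myelin, read 979.0 on R8 and 625.8 on C (0.65) on its chosen probe, and 7793.6 on R8 and 107.4 on C (6.18) on its second. *Mog*, of the outer myelin surface, was dim on its chosen probe, with 34.3 on R8 and 48.5 on C, and at least 3.01 and 2.27 higher on R8 on both others. For *Mobp*, 4 probes were at least 2.15 to 3.48 higher. Probes of these 4 genes were thus far higher in R8 than in C, and the second probes were noted after their values were seen. Taking 1 probe per gene hides this for *Mag*, *Mbp* and *Mog*, but not for *Mobp*, whose chosen probe was at least 3.06 higher. *Cldn11*, the tight junction protein of myelin, read 2856.8 on R8 and 58.0 on C (5.62). *Olig1*, of the oligodendrocyte lineage, read 14635.9 on R8 and 2569.0 on C (2.51), *Olig2* read 285.6 on R8 and 25.5, below detection, on C (at least 3.13), and *Sox10* read 155.0 on R8 and 5.6 on C (at least 2.25). *Cspg4*, of oligodendrocyte precursors, read 283.6 on R8 and 300.6 on C (-0.08). Of 17 genes with a probe, 15 were measured, 7 rose and none fell, with a median of 0.66 by the chosen probe and 2.25 by the probe with the highest signal on either array. *Pmp22*, of Schwann cell myelin, read 1878.2 on R8 and 737.2 on C (1.35), and the endothelin receptor *Ednrb*, of neural crest and glia, read 9910.6 on R8 and 1056.0 on C (3.23).

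**Figure D4:**
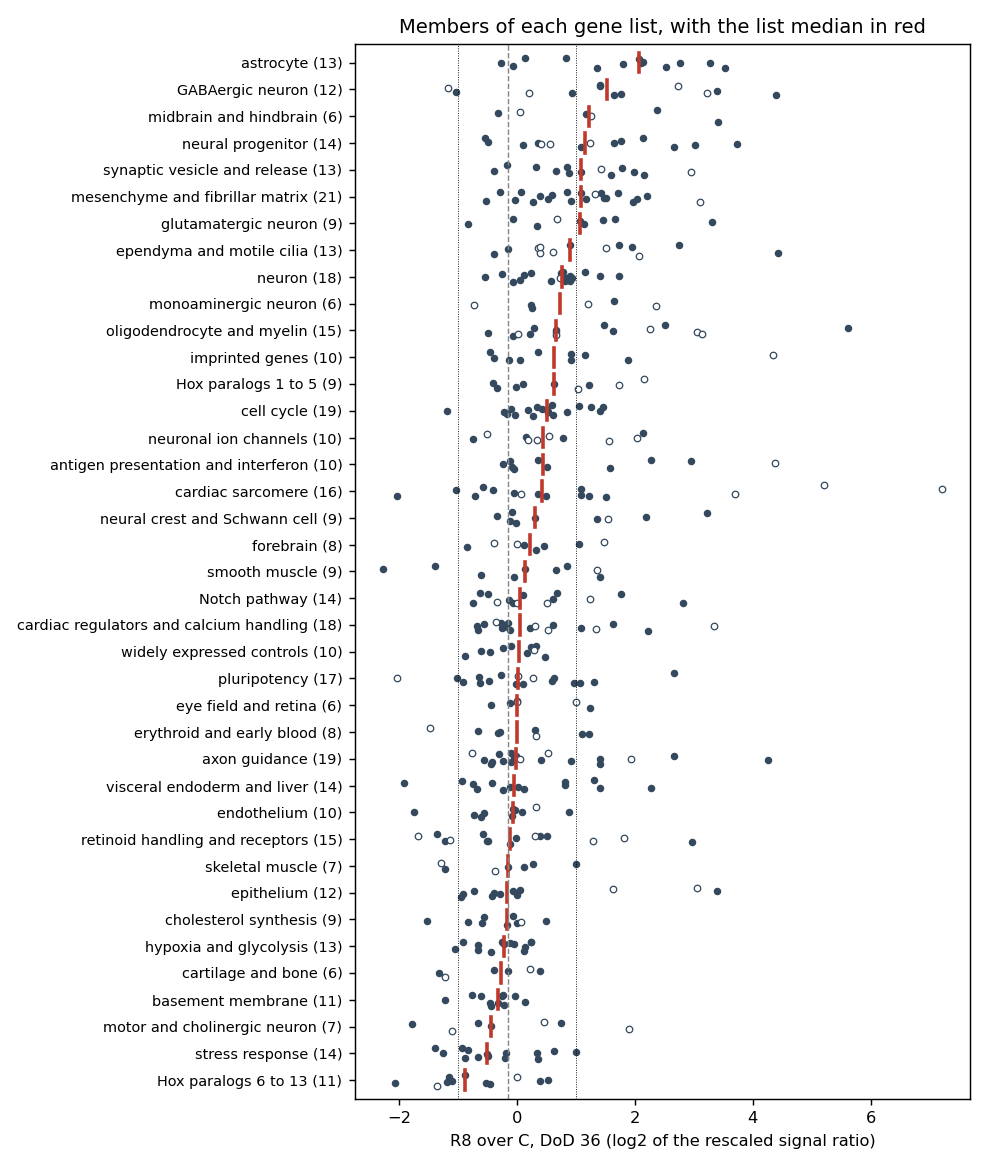
Log2 difference of R8 (10 nM RA) over C (vehicle) on DoD 36 for the measured members of each gene list with 6 or more of them (number in brackets), with bounds as open circles, list medians in red, the median of all genes (-0.15) dashed and 2-fold dotted. The astrocyte list is highest at 2.06, followed by the GABAergic list at 1.52, and the *Hox* paralogs 6 to 13 are lowest at -0.89.

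Motile cilia, which line the ventricles on ependymal cells, followed the glia. *Dynlrb2*, a dynein light chain, read 976.9 on R8 and 45.8 on C (4.42), *Rsph1*, of the radial spoke, read 898.8 on R8 and 271.7 on C (1.73), and *Tekt1*, a tektin, read 137.1 on R8 and 26.4, below detection, on C (at least 2.07). Of 17 genes with a probe, 13 were measured, 6 rose and none fell, with a median of 0.90. *Foxj1*, the master regulator of motile cilia, was not detected on either array.

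Mesenchyme and its fibrillar matrix also stood above the median of all genes. *Col3a1*, a fibril collagen, read 1067.0 on R8 and 261.7 on C (2.03), *Col5a1* read 4076.5 on R8 and 1248.7 on C (1.71), and *Fbln1*, fibulin, read 1891.5 on R8 and 408.4 on C (2.21). Of 22 genes with a probe, 21 were measured, 11 rose and none fell, with a median of 1.08 and a summed signal of 46966.6 on R8 and 35469.3 on C. *Pdgfra*, a receptor of mesenchyme, and *Sparc* and *Mgp*, matrix proteins, lay at 0.07, -0.29 and -0.04. The basement membrane, in contrast, had a median of -0.33. *Col4a1*, its main collagen, read 40508.8 on R8 and 50838.0 on C (-0.33), and *Lama5* fell to 303.0 on R8, against 708.8 on C (-1.23).

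Positional genes split by their place along the body axis. *En1* and *En2*, of the midbrain and hindbrain border, read 919.1 and 356.4 on R8 and 176.8 and 33.8 on C, differences of 2.38 and 3.40. Of 6 measured midbrain and hindbrain genes, 4 rose and none fell (median 1.21). Among *Hox* paralogs 1 to 5, of the hindbrain and neck, 9 of 14 were measured, 4 rose and none fell, with *Hoxb2* at 412.7 on R8 and 177.9 on C (1.21) and *Hoxa2* at 145.8 on R8 and 5.6 on C (at least 2.16). Among paralogs 6 to 13, of trunk and tail, 11 of 24 were measured, none rose and 5 fell, with *Hoxd9* at 130.5 on R8 and 549.6 on C (-2.07) and *Hoxc9* at 223.1 on R8 and 497.1 on C (-1.16). The medians were 0.63 and -0.89, and their signs held under each scaling. The median of paralogs 1 to 5 did not hold under other settings. It was -0.16 with no detection limit, 0.0 with detection at 100 and 0.09 with the mean of a gene's probes. Most of these signals were dim. Forebrain genes had a median of 0.21, with *Bcl11b* at 255.4 on R8 and 124.6 on C (1.04).

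Retinoid handling genes moved both ways 30 days after RA. *Cyp26b1*, which degrades RA, fell to 1734.1 on R8, against 4450.0 on C (-1.36), and *Stra6*, the membrane receptor for retinol carrier, fell to 160.4 on R8, against 373.4 on C (-1.22). *Crabp1*, which binds RA in the cytoplasm, read 261.0 on R8 and 33.4 on C (2.97), and *Aldh1a3*, which makes RA, read 113.9 on R8 and 24.5, below detection, on C (at least 1.81). *Cyp26a1* was level, at 51.3 on R8 and 52.2 on C. *Rara* and *Rarg*, RA receptors, were dim on C (85.1 and 58.5) and below detection on R8. Of 16 genes with a probe, 15 were measured, 3 rose and 4 fell, with a median of -0.13 that changed sign without rescaling.

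Smaller groups followed. Immunoproteasome subunits *Psmb8* and *Psmb9* read 1301.0 and 383.2 on R8 and 168.4 and 79.6 on C (2.95 and 2.27), and *Ifit3*, an interferon target, read 680.1 on R8 and 16.0, below detection, on C (at least 4.38), while *B2m* and *Irf7* lay at -0.12 and -0.09. Of 10 measured genes of that list, 4 rose and none fell. The insulin-like growth factor binding proteins *Igfbp2* and *Igfbp4* read 4377.8 and 5468.8 on R8 and 335.1 and 546.6 on C (3.71 and 3.32), while *Igfbp5* of the same family lay at -0.14. *Nnat*, an imprinted brain gene, read 665.6 on R8 and 10.5, below detection, on C (at least 4.35) on the chosen probe, but a second probe read 209.3 on R8 and 44.7 on C (2.23) and another read 208.9 on R8 and 88.5 on C (1.24). *Nnat* was thus higher on all 3 measured probes, by different amounts, and above detection in C on the last 2 of them. Of 19 measured cell cycle genes, 4 rose, among them *Cdk1* (1.45) and *Plk1* (1.41), and *Mcm2* fell by 1.20. The stress list lay at -0.51 with none higher and 2 lower. *Hmox1*, heme oxygenase of the oxidative stress response, fell to 9755.0 on R8, against 25567.6 on C (-1.39), and *Ddit3*, of the unfolded protein response, fell to 5086.0 on R8, against 12148.7 on C (-1.26).

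Among the remaining largest increases, *Slpi*, a secreted protease inhibitor of epithelia, read 2686.1 on R8 and 15.7, below detection, on C (at least 6.37). *Gsn*, gelsolin, which severs actin, read 2547.3 on R8 and 90.1 on C (4.82), and its second probe read 159.9 on R8 and 5.6 on C (at least 2.30). *Apod*, a lipid carrier of glia and other cells, read 5593.9 on R8 and 207.3 on C (4.75), and *Serpina3n*, a protease inhibitor of reactive astrocytes, read 888.1 on R8 and 17.1, below detection, on C (at least 4.77). The other 11 of the 15 largest increases are *Cldn11* and the cardiac and epidermal genes given above.

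The largest decreases belonged to no 1 list. *Muc5b*, a gel-forming mucin of airways, fell to 46.3 on R8, against 534.0 on C (-3.53). *Spen*, a transcriptional corepressor, fell to 74.7 on R8, against 828.0 on C (-3.47), and its second probe read 6.2, below detection, on R8 and 35.7 on C (at most -0.44). *Pitx1*, a homeobox gene of hindlimb and mouth, fell to 44.5 on R8, against 328.7 on C (-2.89). *Dact2*, a modulator of Wnt and TGF-beta signalling, fell to 285.8 on R8, against 1976.9 on C (-2.79), and its second probe also fell (at most -1.96). *Upk3b*, a uroplakin of mesothelium, was at the floor on R8 (4.5), against 170.1 on C (at most -2.69). *Hdac4*, a histone deacetylase, fell to 506.2 on R8, against 2928.4 on C (-2.53). The others, *Wfdc3*, *Psmc1*, *Agap3*, *Calcoco1*, *Med13l*, *Igsf9*, *Slc12a4*, *Fam83h* and *Dvl2*, fell by 2.49 to 3.02, or by at least 2.53 for *Igsf9*. Second probes of *Agap3* and *Calcoco1* did not fall, with limits of at least 0.27 and 0.72, and that of *Igsf9* was level near detection (29.6 on R8 and 28.7 on C). The endothelial cadherin *Cdh5* fell to 2552.5 on R8, against 8567.2 on C (-1.75), whereas *Pecam1*, *Tek* and *Flt1*, also of endothelium, lay at -0.04, -0.09 and 0.08.

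Further lists are given by their counts, to be read beside the shares over all measured genes, 11.2% higher and 8.57% lower. In short lists a few genes past 2-fold lie near these shares, and such counts are no result about the list. Among axon guidance genes, 19 were measured, 5 rose and none fell, and the median of -0.02 turned positive without rescaling. *Ntn1*, the attractant netrin, read 970.3 on R8 and 50.8 on C (4.26), and *Slit2*, a repellent, read 508.9 on R8 and 80.4 on C (2.66). Of 14 visceral endoderm and liver genes, 3 rose and 1 fell, with *Foxa1*, an endoderm factor, at 345.0 on R8 and 71.4 on C (2.27) and *Cubn*, an endocytic receptor, at 46.9 on R8 and 177.5 on C (-1.92). The endoderm list was thus moved in single members. Of 9 smooth muscle genes, 2 rose and 2 fell, with *Actg2*, a smooth muscle actin, at 61.8 on R8 and 300.5 on C (-2.28). Of 17 pluripotency genes, 3 rose and 2 fell, with *Pou5f1*, the Oct4 gene, at 291.8 on R8 and 140.2 on C (1.06) and *Zfp42* at 15.7, below detection, on R8 and 109.2 on C (at most -2.05). The medians of the endoderm, smooth muscle and pluripotency lists were -0.06, 0.13 and 0.02, and their signs changed with the scaling. Of 9 neural crest genes, 4 rose and none fell (median 0.30). Among hypoxia, cholesterol synthesis, cartilage, skeletal muscle and endothelium genes none rose, with 1, 1, 2, 2 and 1 lower of 13, 9, 6, 7 and 10 measured. Of 10 neuronal ion channel genes, 3 rose and none fell, with *Kcnc1*, a potassium channel of fast-spiking neurons, at 173.0 on R8 and 39.6 on C (2.13). Of 6 monoaminergic genes, 3 rose and none fell, with medians of 0.44 for the channels and 0.72 for the monoaminergic list. Of 8 erythroid and early blood genes, 2 rose and 1 fell. The study's own 3 gene sets had medians of 0.12, 0.30 and 0.98 over 12, 16 and 14 measured genes, the first of which changed sign with the scaling. The first set was drawn from published articles, and the other two used these arrays and are no independent evidence. Of 11 macrophage and microglia genes with a probe, 3 were measured, with a median of -0.70, and *Aif1* and *Cx3cr1*, which mark these cells, were below detection on both arrays.

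Probes of a gene often gave different sizes. Of 889 genes that rose or fell and had a second measured probe, the second was at least 2-fold apart the same way for 269, the other way for 45, and under 2-fold for 575. *Actb* read between -0.30 and -0.87 on 4 probes and -2.94 on the fifth, and *Gapdh* read between -0.32 and -0.56 on its 5 probes. *Gusb*, also widely expressed, read 0.24 on its chosen probe and -0.06 and 2.23 on its others. *Cdc20*, of the cell cycle list, read 0.59 on its chosen probe and 3.37 and at least 4.13 on its others. *Mcm7*, of the same list, read -0.22 and 2.0. *Klf4*, of the pluripotency list, read -0.27 on its chosen probe and -2.44 and -2.26 on its others. What made probes of a gene differ was not tested. None of the 10 measured widely expressed genes passed 2-fold on its chosen probe, and their median was 0.03, which turned negative with the 0.75 quantile or the median of all probes as the scale. That list is short. Outside it, *Ddx5* and *Yme1l1* read 1027.5 and 640.3 on R8 and 115.2 and 57.0 on C (3.16 and 3.49), and 103.7 and 70.5 on R7. *Psmc1* went the other way (-2.88).

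The R7 array places these values in a dose series, although its difference from C rests on the same C array. *Myl2* read 5.6, 4847.8 and 7.0 at 0, 10 and 100 nM RA, *Actc1* read 5.6, 1196.4 and 17.9, and *Krt17* read 136.8, 4017.0 and 269.7. All 3 were highest at 10 nM, and on these probes *Myl2* and *Actc1* were below detection at the other doses. The second *Actc1* probe read 68.6, 269.5 and 34.1, above detection at each dose. *Krt13* read 50.5, 3337.4 and 1500.2, *Slpi* read 15.7, 2686.1 and 1716.7, and *Rptn* read 30.1, 2138.1 and 1454.4. *Krt13*, *Slpi* and *Rptn* were thus also far above vehicle at 100 nM. Others were not, with *Krt16* at 138.0, 1540.8 and 169.6. From R8 to R7, 9 of 10 measured *Lce* genes, 4 of 7 *Sprr* genes and 7 of 24 keratin genes were at least 2-fold lower. At least 2-fold higher were 0, 0 and 1. *Sst* read 90.8, 951.2 and 4.1, *Gad1* read 252.6, 856.2 and 55.6, and *Snap25* read 804.1, 2413.8 and 293.5 in the same order. These neuronal genes had their highest value at 10 nM and fell below vehicle at 100 nM. *Gfap*, at 167.9, 1940.6 and 25373.1, and *Sox9*, of the neural progenitor list, at 550.5, 4477.3 and 7845.4, both climbed with dose. *Cldn11* read 58.0, 2856.8 and 2985.9, about level between the RA doses. The second probes of *Mag* (5.6, 1729.5 and 567.9) and *Mbp* (107.4, 7793.6 and 3826.5), noted after their values were seen, were highest at 10 nM. The oligodendrocyte and myelin list as a whole had a summed signal of 20853.3 on R8 and 29750.2 on R7. Its median of R7 over R8 was -0.26, with 2 higher and 3 lower of 15. *Upk3b* had its lowest value at 10 nM, with 170.1, 4.5 and 1021.7. By list, the sarcomere median of R7 over R8 was -1.96 with 12 of 16 lower, the GABAergic median -2.37 with 7 of 11 lower, and the astrocyte median 0.75 with 6 higher and 1 lower of 14. Over all genes, R7 over R8 was at least 2-fold higher for 7.67% and lower for 7.23%.

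The same dose on DoD 8, 2 days after RA ended, gave a smaller contrast between 2 other arrays. Of 12857 genes measured there, 3.2% rose and 2.08% fell in R8 over C. Over the 11879 genes measured on both days, 97 rose on both, which was 7.87% of the 1233 that rose on DoD 36 and 26.9% of the 360 that rose on DoD 8. Of these 11879, 10.4% rose on DoD 36 and 3.03% on DoD 8. Lower on both were 38, which was 3.72% of 1022 on DoD 36 and 16.7% of 228 on DoD 8. In opposite directions, 29 rose on DoD 36 and fell on DoD 8 (2.35% of 1233 and 12.7% of 228), and 32 fell on DoD 36 and rose on DoD 8 (3.13% of 1022 and 8.89% of 360). Across the 10334 genes detected on all 4 arrays, which share RNA mixed in the same way and probe sequences, the differences of the days had Pearson's r = 0.15. *Cldn11* (5.62 on DoD 36 and 1.53 on DoD 8) and *Zic1* (2.13 and 2.04) rose on both days. *Hoxb5* was at least 1.03 higher on DoD 36 and at least 4.45 higher on DoD 8. *Gata6*, *Sox17* and *Foxa2*, of endoderm, lay at -0.26, -0.24 and -0.94 on DoD 36, and were 1.90, 2.38 and at least 2.52 higher on DoD 8. *Lce1c*, *Slpi* and *Gfap* were below detection on both DoD 8 arrays, so no difference could be measured for them there.

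**Figure D5:**
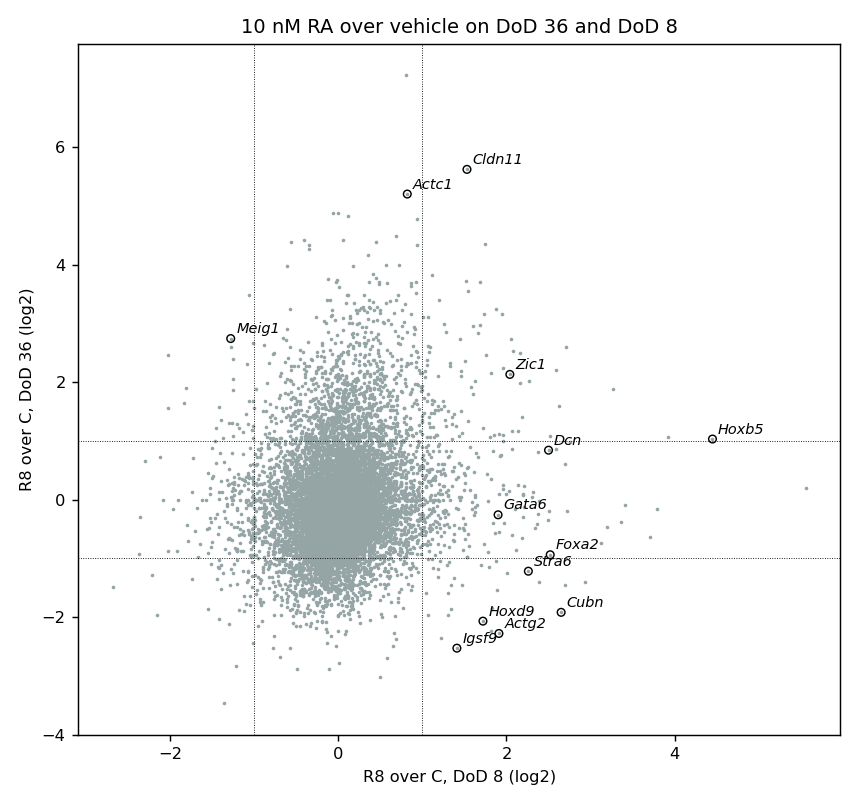
Log2 difference of R8 (10 nM RA) over C (vehicle) on DoD 36 (vertical) and DoD 8 (horizontal) for genes measured on both days, with bounds plotted at their bound and dotted lines at 2-fold. The cloud is taller than wide (r = 0.15 over the genes detected on all 4 arrays), *Cldn11* and *Zic1* lie high on both days, and *Cubn*, *Actg2*, *Hoxd9*, *Igsf9*, *Stra6* and *Meig1* lie in opposite corners.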

How the data were processed

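RNA of 9 conditions was measured with 1 Illumina MouseWG-6 array each, and R8 and C of DoD 36 were compared. The authors centred the raw values on the median in GeneSpring, and the deposited values are log2 signals less 1 constant per array and 1 baseline per probe. Whole signal steps were recovered from them (floor 50 steps, 1 step taken as 0.1 signal units, a convention that leaves ratios unchanged), and 2.45% of 46643 probes stayed approximate. A second deposited table has 9 columns whose names match no sample, and these were not used. For each array, background was taken from probes at the floor on 6 or more of the remaining 8, and the detection level of 29.1 is the median of its 0.99 quantiles. Arrays were then rescaled to their median over 16146 common probes. The scale factors were 0.904 for R8 and 1.119 for C. Of the probes, 32794 have 1 gene symbol, 55 several and 13794 none in the platform annotation, updated through RefSeq. Where a gene has several probes, the one brightest on average (mean of log2 over all 9 arrays) stands for it.

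Named are 5 marker genes, the 15 largest increases and 15 largest decreases among genes with a signal of at least 100, up to 4 members per direction of each list, and members that define a list. Members and lists were chosen with earlier results of these data known. *Mt3*, *Igfbp2*, *Igfbp4*, *Ddx5*, *Yme1l1*, the *Lce*, *Sprr*, keratin and S100 genes and all second probes were added after their values were seen. The scripts were tested on simulated data. Alternatives were other scalings, detection levels, an added offset and other choices among a gene's probes. The detection level of each array and the probe with the highest signal on either array were chosen after seeing the data. Precision is limited by having 1 array per condition. Python 3.11.15, numpy 2.4.6, pandas 2.3.3 and matplotlib 3.10.9 were used.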

Additional observations from a re-analysis of the deposited data

Results flagged for a closer look

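Of the 11879 genes measured on both days, 29 rose on DoD 36 and fell on DoD 8, and 32 fell on DoD 36 and rose on DoD 8. Among them are 6 genes that belong to the gene lists or to the largest changes. With 1 array per condition the difference between the days was not tested for any of them. *Actg2*, a smooth muscle actin, was -2.28 on DoD 36 and 1.91 on DoD 8. *Cubn*, an endocytic receptor of visceral endoderm and kidney, was -1.92 on DoD 36 and at least 2.65 on DoD 8. *Hoxd9* was -2.07 on DoD 36 and 1.72 on DoD 8. *Igsf9*, an immunoglobulin superfamily adhesion protein, was at most -2.53 on DoD 36 and 1.41 on DoD 8. *Stra6* was -1.22 on DoD 36 and at least 2.26 on DoD 8. *Meig1*, needed for sperm formation, was the only one of these 6 to run the other way, with 2.74 on DoD 36 and -1.28 on DoD 8.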

How the results depend on the processing

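None of the 6 list medians given here changed sign under the alternatives, but the balance of probes that rose and fell reversed with the 0.75 quantile and with the median of all probes as the scale. The count of probes that rose was 2895 as reported, 1569 with detection at a signal of 100 and 6311 with no detection limit. The count that fell was 1957 as reported, 3545 with the 0.75 quantile as the scale, 3237 with the median of all probes, 868 with no rescaling, 3114 with detection at the 0.95 quantile of background, 5028 with no detection limit and 1165 with 50 signal units added in place of bounds. The share of called probes that rose was 59.7% as reported, 37.8% with the 0.75 quantile, 41.3% with the median of all probes, 82.7% with no rescaling and 52.3% with quantile normalization. Without rescaling, the medians of the cardiac sarcomere, mesenchyme, neural progenitor, GABAergic, astrocyte and oligodendrocyte lists were 0.73, 1.39, 1.46, 1.83, 2.37 and 0.96. The cardiac median was 0.78 with detection at 100, and the neural progenitor median was 1.49 with the 0.95 quantile of background. The GABAergic median was 1.22 with the added 50 units and 1.17 with the mean of a gene's probes. The astrocyte median was 1.76 with quantile normalization, 1.09 with detection at 100, 1.43 with the added 50 units and 1.38 with the mean of a gene's probes. The oligodendrocyte median was 1.47 with detection at 50, 1.06 with the 0.95 quantile, 1.47 with no limit, 1.59 with the mean of a gene's probes, 1.06 with each array's own quantile and 2.25 with the brightest probe, the last 2 settings having been added after seeing the data. Of 37 other lists, the median moved by more than the spread between single arrays of the DoD 8 pair (robust SD 0.297) for 35 without rescaling, 12 with no detection limit and 10 with the mean of a gene's probes. The causes were not tested, although no rescaling lifts every difference by the ratio of the scale factors. No paired analysis was possible because each condition has 1 array, and for the same reason no replicate could be left out.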
